A study of Homo sapiens with 4 samples.

Results

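A375-R, an A375 human melanoma line resistant to encorafenib, was compared with A375-S, its sensitive counterpart, with both lines in 10 nM encorafenib. Encorafenib is an inhibitor of mutant BRAF. The comparison takes 2 of the 4 libraries of the study, 1 per line, picked by their labels alone and described across gene classes and mature microRNAs. Both lines carry a BRAF mutation, were grown in high-glucose DMEM with FBS, and had 48 h of drug under the labels' protocol. The sources used here give neither how resistance was obtained nor whether A375-R is 1 clone. The other 2 libraries, the same lines with no treatment, are set beside the treated pair where they show whether a difference is also present without drug. With 1 library in each group there is no replicate error and no test: each ratio compares 2 libraries, not the conditions, and each interval covers counting error only.

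In BRAF-mutant melanoma the mutant kinase signals to MEK and ERK without an upstream signal, and ERK drives transcription factors, cyclin D1 and the feedback phosphatases of the DUSP family. A BRAF inhibitor lowers this output in sensitive cells and can push melanoma cells towards a pigmented, differentiated state, while resistant cells keep dividing or surviving through restored ERK output or other pathways. MicroRNAs repress mRNAs that pair with their seed, the bases near the 5′ end. Small nucleolar RNAs guide modification of ribosomal RNA: the C/D box class guides methylation and the longer H/ACA box class guides pseudouridylation. Transfer RNAs carry amino acids to the ribosome.

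The libraries were made from total RNA with a small RNA kit, so the gene table is mostly ribosomal RNA. It holds 20507667 counts for treated A375-R and 25539835 for treated A375-S, of which 307026 and 215894 fall on protein-coding genes. The microRNA table holds 59045 and 4395 counts, beside 20808 and 7041 in the untreated lines, so low microRNA counts in treated A375-S carry wide intervals. Counts were scaled with TMM factors, and a value is a log2 ratio, A375-R over A375-S, with its 95% interval in parentheses unless a fold is named. An entry is called beyond 2-fold where the end of the interval nearest 0 is at least 1 on the log2 scale. Of 8865 entries tested, 240 (2.71%) were higher beyond 2-fold and 110 (1.24%) lower. Ribosomal RNA took 88.7% of the counts of A375-R and 93.8% of those of A375-S, and dividing by library totals instead raises the median entry by 0.81. With total counts 716 entries are higher and 31 lower, and the values below are relative to TMM scaling.

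The mature microRNAs the results turn on are shown first, from RefSeq on GRCh38.p14, 5′ to 3′, with the seed, bases 2 to 8, in capitals. The let-7 family shares 1 seed, and 8 of its 9 tested members were higher in A375-R.
let-7a-5p: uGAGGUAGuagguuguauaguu
let-7b-5p: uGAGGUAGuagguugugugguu
let-7c-5p: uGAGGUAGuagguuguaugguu
let-7d-5p: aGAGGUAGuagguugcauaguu
let-7i-5p: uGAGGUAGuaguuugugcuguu
The next pair are neighbours on the minus strand of the X chromosome (chrX:45746180-45746202 and chrX:45747036-45747056), share a seed and were both higher.
miR-221-3p: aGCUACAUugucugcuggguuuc
miR-222-3p: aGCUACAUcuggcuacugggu
The following groups share a seed within the group, but their members did not move alike.
miR-125a-5p: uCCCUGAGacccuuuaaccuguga
miR-125b-5p: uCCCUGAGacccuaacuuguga
miR-25-3p: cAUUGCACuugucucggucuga
miR-92a-3p: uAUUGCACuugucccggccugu
miR-92b-3p: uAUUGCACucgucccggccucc
The last set holds microRNAs at the ends of the range, the first 3 higher in A375-R and the last 3 lower.
miR-29a-3p: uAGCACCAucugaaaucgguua
miR-34a-5p: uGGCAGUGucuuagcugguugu
miR-210-3p: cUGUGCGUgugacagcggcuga
miR-328-3p: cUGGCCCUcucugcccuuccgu
miR-296-5p: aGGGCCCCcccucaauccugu
miR-6516-3p: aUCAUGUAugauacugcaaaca

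Among microRNAs, A375-R under drug had more let-7, miR-221-3p, miR-222-3p, miR-125b-5p, miR-29a-3p and miR-34a-5p relative to other microRNAs, and less miR-328-3p, miR-296-5p and miR-92b-3p. Of 190 mature microRNAs tested among 644 entries, 36 (18.9%) were higher beyond 2-fold and 22 (11.6%) lower. In the untreated pair 26 (13.7%) were higher and 9 (4.74%) lower. The pairs share no library, and 22 microRNAs were higher in both, that is 22 of the 36 under drug and 22 of the 26 without. Lower in both were 5. The split depends on the scale: with total microRNA counts 21 were higher and 34 lower, and against the scaled totals of the gene table, 116 were higher and none lower. The microRNA table detected 535 entries in treated A375-R and 250 in treated A375-S, and 44 of the 190 had no count in A375-S.

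The let-7 family represses growth genes such as RAS and HMGA2. Its 9 members with the shared seed had 13398 counts in treated A375-R and 192 in treated A375-S, and 6708 and 424 in the untreated lines. Of the 9, 8 were higher beyond 2-fold, with a median of 3.04 against 0.76 over all 190. The median over all microRNAs depends on the minimum: 1.73 with at least 50 counts in a treated library and -0.86 with no minimum. Without drug the 9 had a median of 2.69. let-7a-5p had 7113 counts against 98 under drug and 3850 against 236 without, a log2 ratio of 3.20 (2.92 to 3.51) and 3.28 (3.10 to 3.48). let-7a-5p took 12.05% of the microRNA counts of treated A375-R (11.8 to 12.3, Clopper-Pearson) and 2.23% of those of treated A375-S (1.81 to 2.71). The member that moved most was let-7d-5p, with 379 counts against 1 and a log2 ratio of 5.004 (3.10 to 10.89), beside 59 against 5 without drug. let-7c-5p had 1276 counts against 9, at 4.09 (3.24 to 5.30), and let-7i-5p 511 against 6, at 3.32 (2.30 to 4.89). The 3 opposite arms tested, which carry other seeds, were split and none was beyond 2-fold under drug. let-7d-3p had 234 counts against 63 and stood at -1.09, and let-7b-3p had 39 against 12 and stood at -1.32. let-7i-3p had 116 against 4 under drug and 32 against 2 without, at 1.72 (0.48 to 3.78) and 2.96 (1.29 to 6.36).

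miR-221-3p and miR-222-3p, which repress the cell cycle inhibitor CDKN1B and the receptor KIT, were both higher. miR-221-3p had 685 counts against 3 under drug and 83 against 10 without, with log2 ratios of 4.63 (3.30 to 7.14) and 2.25 (1.36 to 3.42). miR-222-3p had 973 against 16 under drug and 408 against 45 without, at 2.90 (2.24 to 3.76) and 2.42.

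A shared seed did not mean a shared ratio. miR-125b-5p had 7047 counts against 156 under drug, at 2.51 (2.29 to 2.76), while miR-125a-5p, with the same seed, had 3808 against 571, at -0.24. miR-125b-5p made up 11.9% of the microRNA counts of treated A375-R and 3.55% of those of treated A375-S, and miR-125a-5p 6.45% and 12.99%. Of the 3 microRNAs that share the seed of the miR-25 family, miR-25-3p stood at 2.15 (1.65 to 2.75), with 1069 counts against 30. miR-92a-3p stood at 0.82, with 2603 against 187, and miR-92b-3p at -1.71 (-1.98 to -1.43), with 379 against 157. The last of these lay at -0.79 without drug, where it was not beyond 2-fold.

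Several microRNAs with counts in A375-R had few or none in treated A375-S. miR-34a-5p, a direct transcriptional target of p53, had 186 counts against 0 under drug and 10 against 0 without. With a count of 0 set to its upper limit of 3, it was 7.86-fold higher, and its interval began at 6.33-fold. miR-210-3p, which is induced by hypoxia, had 242 against 0 under drug and 50 against 1 without. With the 0 set to 3 it was 10.2-fold higher under drug, with an interval from 8.26-fold. miR-130a-3p had 191 against 0, at least 8.08-fold higher. miR-29a-3p, a repressor of collagen mRNAs, had 398 against 2 and a log2 ratio of 4.34 (2.80 to 7.71). miR-204-5p, which lies in an intron of TRPM3, had 54 against 0 and was not beyond 2-fold at the interval. miR-146a-5p, a brake on NF-kappa-B signalling, had 550 against 9, at 2.88 (2.02 to 4.09). miR-1246 had 246 against 0 and is one of the names known to match structural RNA, so its source in these counts is uncertain.

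Among the lower microRNAs, 10 are named by the size of their bound and most were scarce. miR-328-3p was the most abundant, with 477 counts against 279 under drug and 178 against 179 without, at -2.21 (-2.42 to -1.99) and -0.75. miR-296-5p had 140 against 77 under drug and 94 against 246 without, at -2.12 (-2.53 to -1.70) and -2.13. miR-6516-3p had 68 against 92, at -3.41 (-3.89 to -2.95), and belongs to the names that match structural RNA, as do miR-1260b at -3.30, miR-7704 at -2.59 and miR-4488 at -5.18 (-8.65 to -3.24), the last with 2 counts against 11. The other 4 of the 10, miR-3940-3p, miR-197-5p, miR-1908-3p and miR-940, had between 4 and 20 counts in either treated library. Raw counts of miR-328-3p and miR-296-5p were higher in A375-R, and their ratios are below 0 because most other microRNAs were higher by more. Relative to the scaled gene table they stood at 0.28 and 0.36, and miR-92b-3p at 0.78.

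**Figure D1:**
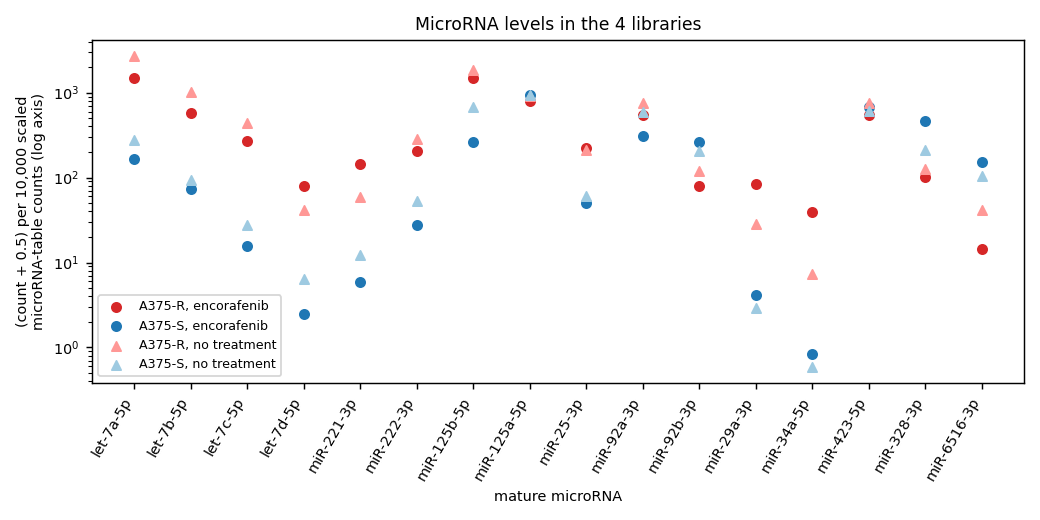
Counts of the named mature microRNAs in each of the 4 libraries, scaled within the microRNA table. let-7, miR-221-3p and miR-125b-5p were higher in A375-R than in A375-S in both pairs, while miR-328-3p and miR-92b-3p were lower under encorafenib.

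The ratio ran with base composition. There were 80 microRNAs with at least 50 counts in a treated library and a known sequence. The 15 with under 45% G and C had a median of 3.04, with 11 higher and 1 lower beyond 2-fold. Most of these 11 were let-7 members with the shared seed, and the median is the value of let-7g-5p. The 33 from 45% to under 55% had a median of 2.32, with 19 higher and none lower. The 17 from 55% to under 65% had a median of -0.30, and the 15 at 65% or more one of -0.55, with none higher and 4 lower. Across these 80 the Pearson correlation of G and C content with the ratio was -0.57 and the Spearman correlation -0.63, and in the untreated pair -0.60 and -0.64. The points share the same 2 libraries per pair and are not independent replicates. Away from this gradient lay miR-6516-3p, with 31.8% G and C and a ratio below 0, and miR-210-3p, with 63.6% and no count in treated A375-S. The part that base composition has in the let-7 and miR-221 differences was not tested.

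**Figure D2:**
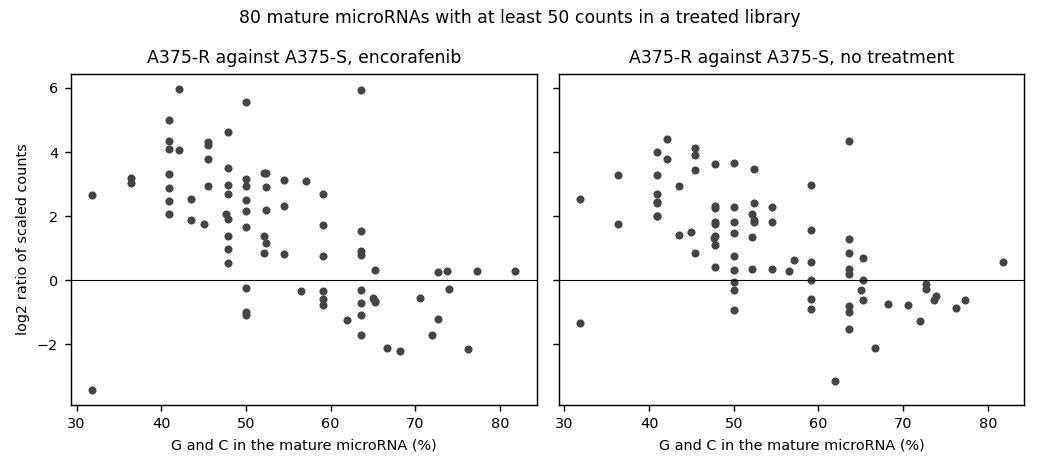
Log2 ratio of A375-R over A375-S against the percentage of G and C in the mature sequence, 1 point per microRNA, with encorafenib on the left and no treatment on the right. Medians went from 3.04 under 45% G and C to -0.55 at 65% or more in the treated pair.

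Small structural RNAs were compared by class. To show the classes, 4 small nucleolar RNAs named by size are printed from the GENCODE 29 annotation of GRCh38, on the transcribed strand. In the first, the C box (TGATGA) and D box (CTGA) are in capitals. In the second, which has no exact TGATGA, capitals mark the D box alone. In the last 2 they mark the last ACA within the final 9 bases, where the ACA box lies. In SNORA41 another ACA overlaps the marked one, and which of them is the ACA box was not settled here.
SNORD82: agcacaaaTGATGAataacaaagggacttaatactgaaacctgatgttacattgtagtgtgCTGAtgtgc
SNORD36C: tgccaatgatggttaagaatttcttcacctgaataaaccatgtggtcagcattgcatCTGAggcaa
SNORA58B: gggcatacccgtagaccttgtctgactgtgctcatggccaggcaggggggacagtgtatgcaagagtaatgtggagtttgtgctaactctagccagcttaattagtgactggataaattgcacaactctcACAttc
SNORA41: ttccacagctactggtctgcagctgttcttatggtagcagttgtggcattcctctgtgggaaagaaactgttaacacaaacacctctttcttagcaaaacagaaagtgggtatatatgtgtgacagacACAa
They lie at chr2:231460371-231460440 on the minus strand, chr9:133350847-133350912, chr1:154259727-154259862 and chr2:206162228-206162359 on the plus strand. Searched on the transcribed strand, TGATGA in the first 20 bases together with CTGA in the last 15 was found in 67.7% of 269 annotated SNORD genes and in 0 of 140 SNORA genes. ACA in the last 9 bases was found in 126 of 140 SNORA genes and in 14 of 269 SNORD genes (5.20%).

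Of 194 C/D box entries, 37 were higher beyond 2-fold and 5 lower, with a median of 0.41, beside 0.52 without drug. Of 121 H/ACA box entries, 1 was higher and 29 lower, with a median of -0.78, beside -0.33 without drug. With total counts the H/ACA median was 0.03 and the C/D median 1.22, so the direction of the H/ACA class rests on the scale.

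SNORD82 had 3539 counts in treated A375-R and 174 in treated A375-S, and 269 and 149 without drug. It was 14.4-fold higher under drug, at 3.85 (3.63 to 4.08), and at 1.30 without. SNORD36C had 5219 and 266 under drug and 248 and 144 without, 13.9-fold higher under drug. In both genes the treated A375-R library stood apart from the other 3. SNORD28, with 3214 against 366, was 6.24-fold higher, and SNORD58B, with 9669 against 1177, was 5.83-fold higher. SNORA58B had 113 counts against 1442 under drug and 126 against 1053 without, at -4.16 (-4.46 to -3.89) and -2.61. SNORA36B had 15 against 211, at -4.26 (-5.17 to -3.55), and SNORA41 57 against 261, at -2.68 (-3.13 to -2.27). These 3 were low in A375-R in both pairs. The exceptions to the class pattern were SNORA50C, the single H/ACA entry that was higher, with 1587 counts against 358, and SNORD14B, SNORD143, SNORD134, SNORD103C and SNORD3D among the C/D entries. SNORD14B was the most abundant of these 5, with 742 counts against 2812, at -2.42 (-2.53 to -2.30). SNORD3D belongs to the repeated SNORD3 genes, between whose copies reads can be assigned either way, so its place among the exceptions is uncertain. Among the scaRNAs, which guide modification of spliceosomal RNA, 1 of 25 (4%) was higher and 4 (16%) lower. SCARNA15 had 38 counts against 380, at -3.80 (-4.34 to -3.33), and SCARNA9L 789 against 214, at 1.39.

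Transfer RNA was higher in A375-R for most anticodons. It took 0.431% of the gene-table counts of treated A375-R and 0.0375% of those of treated A375-S. Of 160 nuclear tRNA entries 98 (61.25%) were higher beyond 2-fold and 5 (3.125%) lower, against 2.71% and 1.24% of all 8865 entries. Their median was 2.96, and 2.51 with entries at 0 placed at their floor. Many nuclear tRNA genes are identical copies: the 160 entries hold 81 distinct count profiles, of which 47 were higher and 1 lower. Summed by anticodon over distinct profiles, 25 of 33 were higher and none lower. The aspartate tRNA with anticodon GTC, the most abundant, had 8191 counts against 911 under drug and 6008 against 887 without, and was 6.38-fold higher (5.96 to 6.85) and 9.23-fold higher. Histidine GTG had 160 counts against 4, 25.3-fold (10.9 to 106), and proline CGG 218 against 3, 44.3-fold (17.4 to 252). The glycine tRNAs were nearer to even: glycine GCC, with 1230 counts against 346, was 2.52-fold higher and glycine TCC, with 496 against 188, 1.87-fold, which is not beyond 2-fold at the interval. Glycine tRNA made up 12.6% of the nuclear tRNA counts of treated A375-R and 25.3% of those of treated A375-S.

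The 3 valine anticodons gave unlike values in the treated and untreated pairs, and the difference between pairs was not tested. Valine CAC had 1363 counts against 164 under drug, 5.89-fold higher (5.02 to 6.98), and 288 against 428 without, where its log2 ratio was -0.12 (-0.35 to 0.09). Valine AAC had 462 against 137 under drug and 219 against 267 without, 2.39-fold and 1.12-fold. Valine TAC had 797 against 62 under drug and 194 against 65 without, 9.06-fold and 4.05-fold higher. The copies TRV-CAC4-1, with 514 counts against 0 under drug and no count in either untreated library, and TRG-GCC2-4 cannot be told from their near-identical copies with certainty.

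Mitochondrial tRNA, which is transcribed from the mitochondrial genome and has 1 gene per tRNA, gave the same direction. Its 21 tested entries held 21 distinct count profiles, but how reads that also match elsewhere in the genome were handled is not given. Of 21 entries, 19 (90.5%) were higher beyond 2-fold and none lower, with a median of 2.69, beside 2.27 without drug. TRNE, for glutamate, had 9326 counts against 353 under drug and 3580 against 252 without, 18.8-fold and 19.4-fold higher. TRNQ had 3517 against 188, 13.3-fold higher, and TRNM 919 against 162, 4.03-fold. TRNG, with 505 against 335, and TRNR, with 19 against 16, were the 2 not beyond 2-fold. The 2 mitochondrial ribosomal RNAs, from the same genome, were near even, with log2 ratios of 0.16 for RNR1 and 0.32 for RNR2.

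The other small RNA families were split. The SNAR RNAs, a primate-specific family, had 5058 counts against 195 summed over distinct profiles, 18.4-fold higher (15.96 to 21.4), and 3578 against 574 without drug. The 4 vault RNAs had 1027 against 212, 3.43-fold higher (2.96 to 4.01), and 3 of them were beyond 2-fold. RNY4 and RNY5, Y RNAs that bind the Ro60 protein, stood at 1.36 and 1.43, while RNY1 stood at -0.52 and RNY3 at 0.17. U1 snRNA, summed over its copies, had 22153 counts against 35106, at -1.16 (-1.18 to -1.13), U2 stood at -1.002, U4 at -0.63, U5 at -0.53 and U6 at -0.43. RNU6ATAC, of the minor spliceosome, stood at -1.66 while RNU12 and RNU11, also of the minor spliceosome, stood at 0.83 and 0.09. 7SK, which holds the elongation factor P-TEFb inactive, stood at -0.80, and RMRP, the RNA of the mitochondrial RNA processing ribonuclease, at 0.06. Single copies of repeated genes switched between libraries: RNU6-8 had 0 counts against 232 and RNU6-1 1332 against 15, so only sums over a family are read here.

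The ribosomal RNA species did not share 1 ratio. The 5.8S species had 2440655 counts against 4643160, at -1.42, and the 45S precursor 4375566 against 6409428, at -1.04, beside 0.15 without drug. 18S stood at 0.09, 28S at 0.63 and 5S at -0.82. Reads from the shared parts of these repeats can be assigned to any copy, so the split between precursor and mature species is uncertain.

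The ratio also followed the length of the RNA. Over 390 distinct structural RNA entries with at least 50 counts in a treated library, the Spearman correlation of length with the log2 ratio was -0.62, beside -0.52 without drug. Without that minimum, the medians were 1.60 for the 181 RNAs from 50 to under 80 bases, 0.46 for the 82 from 80 to under 100, 0.33 for the 26 from 100 to under 120 and -0.67 for the 123 from 120 to under 140. The 36 from 140 to under 200 bases had a median of -0.72 and the 31 of 200 to 500 one of -0.31. Within the C/D box class, again with at least 50 counts, the correlation was -0.39 over 175 entries, and within the H/ACA class it was 0.01 over 100. These correlations are across genes of the same libraries and carry no p-value. The part that RNA length has in the class differences was not tested.

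**Figure D3:**
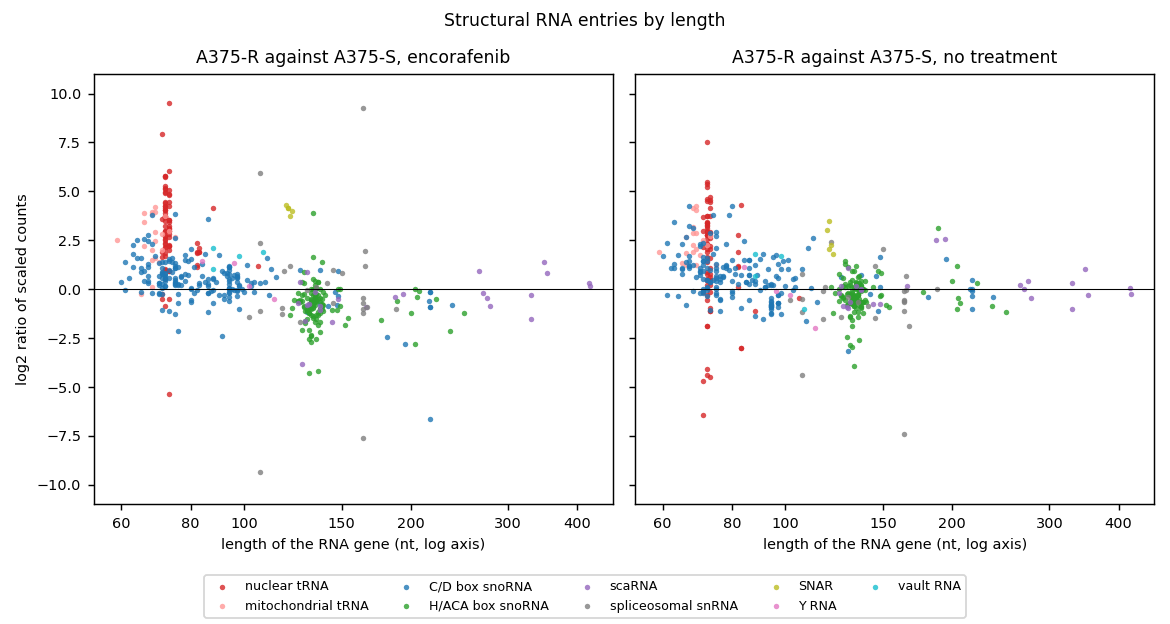
Log2 ratio of A375-R over A375-S against the length of the RNA gene on a log axis, 1 point per structural RNA entry coloured by class, with encorafenib on the left and no treatment on the right. RNAs from 50 to under 80 bases had a median of 1.60 under drug, and those from 120 to under 140 a median of -0.67.

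Long non-coding RNAs were split, with 6 of 241 (2.49%) higher beyond 2-fold, 10 (4.15%) lower and a median of -0.11. The shares over all 8865 entries were 2.71% and 1.24%. NEAT1, the scaffold of nuclear paraspeckles, had 998 counts against 3715 under drug and 957 against 4090 without, at -2.39 (-2.49 to -2.29) and -1.65 (-1.75 to -1.55), so it was low in A375-R in both pairs. SNHG12 and SNHG7, which are host genes of snoRNAs, stood at -1.49 and -1.29. ZNF436-AS1, with 142 counts against 0, was 33.6-fold higher with the 0 set to 3. LOC105371225 had 4207 against 130, 22.98-fold higher. Overlap of exons with small RNA genes was looked for in protein-coding genes only, so the source of the long non-coding counts is uncertain.

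Of 7916 protein-coding genes tested, 54 (0.682%) were higher beyond 2-fold and 39 (0.493%) lower, with a median of 0.04. In the untreated pair 80 (1.01%) were higher and 64 (0.808%) lower. With total counts the split under drug was 386 higher and 6 lower. The 54 higher genes include SLC7A5, S100A6, TIMP1, FTH1, LDHA and CDKN1A, and the 39 lower ones DCT, GPNMB, ITGA2 and NFATC2. Of the 54, 14 were also higher beyond 2-fold without drug, which is 14 of the 80 higher there. Of the 39 lower genes, 1 was lower and 2 were higher without drug. Overlap of an exon with the gene of a small RNA, whose reads can then be counted for the host, was present in 6 of the 39 and in 1 of the 54, against 257 of all 7916. The higher genes had a median transcript length of 2305 bases, the lower ones 3654.5 and the rest 2969. The gene lists below were chosen with earlier results of these data known, so a list set beside all coding genes is only a description. Intervals clear 0 more readily at high counts. Of the 7916 genes, 1085 had at least 50 counts in a treated library, with a median of 0.13.

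Amino acid supply genes were among those higher under drug. SLC7A5, the subunit of the LAT1 transporter that carries large neutral amino acids, had 100 counts against 6 under drug and 33 against 37 without, at 3.46 (2.39 to 5.05) and 0.28 (-0.44 to 1.00). Treated A375-R was the highest of the 4 libraries and treated A375-S the lowest. Its partner SLC3A2 had 48 against 14, at 1.25 (0.40 to 2.26). PHGDH, the first enzyme of serine synthesis, had 28 against 3 under drug and 18 against 57 without, at 2.53 (1.03 to 5.09) and -1.19 (-2.07 to -0.43). Of the 16 genes of the list of amino acid transport and serine synthesis, these 2, SLC7A5 and PHGDH, were beyond 2-fold, and 7 had an interval above 0 and 1 below, against 634 and 525 of all 7916 coding genes. The median was 0.78, beside -0.27 without drug, and -0.06 over the 4 members with at least 50 counts in a treated library. ATF4, the transcription factor that induces many of them, had 79 counts against 60, at -0.10 (-0.60 to 0.41), and SLC1A4, a transporter of small neutral amino acids, 36 against 54, at -1.07 (-1.73 to -0.44).

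Of 25 interferon-response genes tested, 6 were higher beyond 2-fold and none lower. An interval above 0 was found for 17 of the 25, against 634 of all 7916 coding genes. The median was 1.19, against 0.04 over all coding genes and 1.10 for the list without drug. With at least 50 counts in a treated library, it was 1.04 over 8 of these genes under drug and 0.13 over all coding genes. ISG15, a ubiquitin-like modifier, had 66 counts against 7 under drug and 23 against 1 without, at 2.65 (1.62 to 4.11) and 4.42 (2.35 to 10.33). IFIT3, which belongs to the IFIT family of antiviral RNA-binding proteins, had 100 against 19 under drug and 18 against 5 without, at 1.87 (1.18 to 2.69) and 2.20 (0.81 to 4.08). IFIT1, DDX58, OAS3 and IFI44L, the other 4, had between 21 and 37 counts in treated A375-R and between 1 and 3 in treated A375-S. DDX58 encodes the RNA sensor RIG-I and OAS3 makes the second messenger that activates RNase L. IFITM3, with 217 against 174, stood at -0.18 (-0.47 to 0.12), and IRF1, a transcription factor of the pathway, had 4 against 9. Of 9 immune markers, 2 were tested, with 37 counts against 17 in sum, nearly all from CD68, and their part in the result was not tested.

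The promoters of ISG15 and IFIT3 are shown because these 2 genes of the list were beyond 2-fold with the most counts; both are from RefSeq on GRCh38.p14, plus strand, from 250 bases before to 50 after the start of the gene. Capitals mark matches to GAAA, any 2 bases and GAAA again, the core of the interferon-stimulated response element, searched on both strands with overlapping matches allowed.
ISG15: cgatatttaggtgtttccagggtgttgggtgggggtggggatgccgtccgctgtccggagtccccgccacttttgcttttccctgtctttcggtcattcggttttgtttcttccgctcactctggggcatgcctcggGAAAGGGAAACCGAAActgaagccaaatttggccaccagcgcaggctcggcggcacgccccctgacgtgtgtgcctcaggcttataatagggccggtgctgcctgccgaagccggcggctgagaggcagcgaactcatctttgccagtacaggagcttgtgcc
IFIT3: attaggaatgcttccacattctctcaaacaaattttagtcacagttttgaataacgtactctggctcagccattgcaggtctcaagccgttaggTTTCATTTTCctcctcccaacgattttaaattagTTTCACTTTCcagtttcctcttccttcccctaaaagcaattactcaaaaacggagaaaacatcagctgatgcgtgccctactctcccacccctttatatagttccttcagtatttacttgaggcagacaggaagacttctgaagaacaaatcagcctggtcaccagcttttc
The windows are chr1:1013247-1013546 and chr10:89327747-89328046, and each holds 2 matches. The motif was present in 1195 of 27305 genes with a promoter window (4.38%), in 275 of 6589 tested protein-coding genes (4.17%) and in 13 of the 20 tested interferon genes with a window; a gene with several starts was counted once, by its window with most matches. Of the 6 beyond 2-fold it was present in 5, all but DDX58. A match is a description of the window and not evidence of binding.

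Outputs of ERK signalling were low in both treated libraries, and 1 of 20 was beyond 2-fold. CCND1, cyclin D1, had 46 counts against 7 under drug and 189 against 106 without, at 2.14 (1.07 to 3.62) and 1.28 (0.93 to 1.64), and is that gene. EGR1, an immediate early transcription factor, had 26 against 3 under drug and 95 against 139 without, at 2.43 (0.92 to 4.99) and -0.10. DUSP6, the phosphatase that reports ERK activity, had 24 against 12 under drug and 127 against 117 without, at 0.48 (-0.55 to 1.64). DUSP4, a phosphatase of the same family, had 70 against 30, at 0.72 (0.09 to 1.40). SPRY4, a feedback inhibitor, had 4 against 0 under drug and 46 against 112 without. In the list 7 of 20 had an interval above 0, against 634 of all 7916 coding genes, and none below. The median was 0.98, or 0.40 with the 5 members at 0 in a treated library placed at their floor, beside -0.01 without drug. Upstream, BRAF had 14 counts against 7, at 0.46 (-0.90 to 2.06), identical to another entry, and none of the 12 tested genes of RAS, RAF, MEK and ERK was beyond 2-fold. With total counts the median of these 12, -0.24, is 0.57. SHOC2, a scaffold of RAF activation, had 33 counts against 9, at 1.32 (0.29 to 2.63). None of the 8 tested receptor tyrosine kinases linked to escape was beyond 2-fold; AXL had 18 against 9 and ERBB3 96 against 99.

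The pigment genes DCT and GPNMB and the adhesion gene ITGA2 were lower beyond 2-fold. DCT, the pigment enzyme dopachrome tautomerase, had 145 counts in treated A375-R and 332 in treated A375-S, and 1 and 0 without drug. It stood at -1.69 (-1.98 to -1.40): both treated libraries were far above the untreated ones and A375-S was the higher. GPNMB, a melanosomal glycoprotein, had 74 against 148 under drug and 32 against 5 without, at -1.49 (-1.92 to -1.08) and 3.01 (1.75 to 4.84). MITF, the master regulator of the melanocyte lineage, had 59 against 45, at -0.11 (-0.69 to 0.49), and SOX10 86 against 73, at -0.26. Of 14 melanocyte markers 5 were tested, 2 of them lower beyond 2-fold and none higher, with a median of -0.26 that is 0.55 with total counts. Of the 5, 1 had an interval above 0 and 2 below, against 634 and 525 of all 7916 coding genes. ITGA2, a collagen-binding integrin chain, had 55 against 114 under drug and 131 against 45 without, at -1.54 (-2.04 to -1.07) and 1.98 (1.49 to 2.51). THBS1, a secreted matrix glycoprotein, had 148 against 217, at -1.04 (-1.36 to -0.74). The list of matrix and adhesion genes was not low as a whole: of 21 tested, 7 had an interval above 0 and 2 below. Its median was 0.20 in both pairs, with 1 gene lower beyond 2-fold and 0 higher under drug. NFATC2, a transcription factor of the calcineurin pathway, was lower beyond 2-fold, with 118 counts against 247 and a ratio of -1.56 (-1.89 to -1.24). Not beyond 2-fold at the interval were the lysosomal traffic regulator LYST, at -1.24, the semaphorin SEMA3C, at -1.16, and ANGPTL7, with 52 counts against 97 under drug and none in either untreated library. DKC1, TMEM107, WDR74 and RANBP1 were also lower beyond 2-fold, and in each an exon overlaps the gene of a small RNA, so their source is uncertain.

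The protease inhibitor TIMP1, the calcium-binding protein S100A6 and the ferritin heavy chain FTH1 were higher beyond 2-fold in A375-R. TIMP1, an inhibitor of matrix metalloproteinases, had 488 counts against 58 under drug and 1855 against 350 without, at 2.57 and 2.85. Its relative TIMP2 had 101 against 85, at -0.25 (-0.68 to 0.19), and TIMP3 165 against 57, at 1.03. SERPINE2, an inhibitor of thrombin and plasminogen activators, had 424 against 96, at 1.64 (1.33 to 1.98). SERPINF1 went the other way, with 0 against 14, 6.57-fold lower with the 0 set to 3. S100A6 had 736 against 86 under drug and 1426 against 662 without, at 2.60 and 1.55, and 1 of 14 genes in the list of S100 proteins and annexins was beyond 2-fold. FTH1, the ferritin heavy chain, had 1361 against 263, at 1.88 (1.69 to 2.07), and FTL, the light chain, 788 against 415, at 0.43 (0.26 to 0.61). TFRC, the transferrin receptor, had 46 against 10 under drug and 68 against 9 without, at 1.65 (0.70 to 2.86) and 3.30 (2.36 to 4.55). NCOA4, the receptor that delivers ferritin to the lysosome, had 28 against 19, at 0.05 (-0.83 to 0.99), and SLC40A1, the iron exporter, had 4 against 2, under the minimum for a test.

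Of 24 glycolytic and hypoxia genes tested, 3 were higher beyond 2-fold, LDHA, PKM and NDRG1. An interval above 0 was found for 12 of the 24, against 634 of all 7916 coding genes, and below 0 for none. The median was 0.81 in both pairs. With at least 50 counts in a treated library, it was 0.85 over 9 of these genes under drug and 0.13 over all coding genes. LDHA, lactate dehydrogenase A, had 171 counts against 38 under drug and 282 against 160 without, at 1.66 (1.16 to 2.22) and 1.26. PKM, pyruvate kinase, had 313 against 79, at 1.49 (1.13 to 1.87). GAPDH, with 2468 against 882, stood at 0.99 (0.88 to 1.10), and the glucose transporter SLC2A1, with 24 against 16, at 0.08 (-0.88 to 1.10). NDRG1, a hypoxia-induced gene, had 36 against 4, at 2.53 (1.20 to 4.63).

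Of the p53 list 1 of 18 was higher beyond 2-fold and 0 lower, against 0.682% and 0.493% of all coding genes. Of the 18, 6 had an interval above 0 and 1 below, against 634 and 525 of all 7916 coding genes. The median was 0.84, beside 0.47 without drug. With at least 50 counts in a treated library, it was 0.59 over 4 of these genes and 0.13 over all coding genes. CDKN1A, the cell cycle inhibitor p21, had 246 counts against 58 under drug and 163 against 65 without, at 1.58 (1.17 to 2.03) and 1.77 (1.35 to 2.21). GADD45A had 42 against 9, at 1.67 (0.67 to 2.95), MDM2, which degrades p53, 138 against 75, at 0.38 (-0.03 to 0.81), and MDM4, its relative, 20 against 38, at -1.40 (-2.28 to -0.60).

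Proliferation genes had few counts in both treated libraries. The 29 listed genes had 129 counts in treated A375-R and 90 in treated A375-S in sum, against 349 and 1320 without drug. Of the 23 tested none was beyond 2-fold under drug, with a median of -0.06, against -1.44 without drug, where 3 were lower beyond 2-fold. TOP2A had 11 against 6 under drug and 65 against 260 without, and MKI67 6 against 4 and 35 against 149. With total counts the median under drug is 0.75. The log2 ratio of the summed counts of the list under drug was 0.02 (-0.37 to 0.43).

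Sterol and fatty acid synthesis was the list with the lowest median, -0.39 over 20 genes, beside -0.22 without drug. SCD, which desaturates fatty acids, had 28 counts against 58, at -1.53 (-2.25 to -0.87). With total counts the median of this list is 0.42.

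The house-keeping lists held few genes beyond 2-fold. Of 58 cytosolic ribosomal proteins 1 was beyond 2-fold, RPL17 at 1.49 (1.26 to 1.74), where a small RNA gene lies in an exon, and the median was 0.08. None of the 22 translation factors, 27 proteasome subunits, 30 respiratory chain subunits and 27 autophagy and lysosome genes was beyond 2-fold. The respiratory chain had a median of 0.45, with 13 intervals above 0 and none below, against 634 and 525 of all 7916 coding genes. Among coding genes with at least 10 counts in a treated library, the ratio fell with transcript length. The median was 0.32 from 312 to 1623 bases and -0.14 from 5366 to 27592. With at least 50 counts, it was 0.41 from 314.5 to 1241 bases, and 0.61 over 18 respiratory chain genes. The part that transcript length has in the list medians was not tested. The 25 cytoskeletal genes had a median of 0.53. Among them TMSB4X, an actin-binding peptide, had 13 counts against 0, 3.08-fold higher with the 0 set to 3. Of the 23 cytosolic chaperones HSPA1B was beyond 2-fold, with 18 counts against 1, at 3.13 (1.01 to 9.06).

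**Figure D4:**
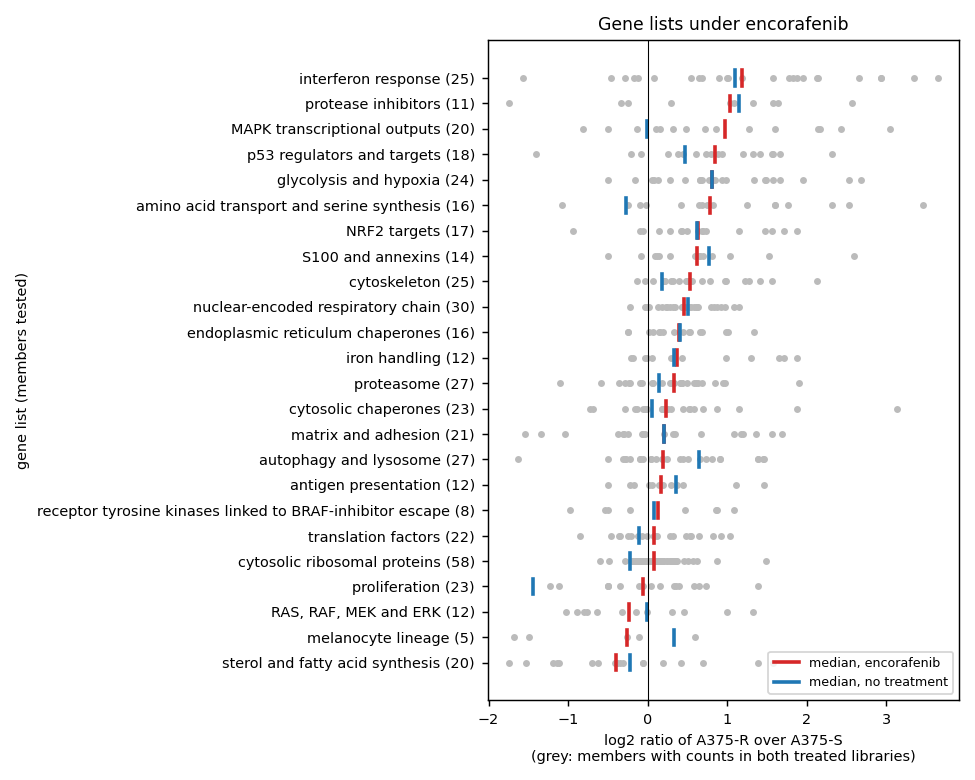
Log2 ratio of A375-R over A375-S under encorafenib for the members of each gene list, with grey points for members that have counts in both treated libraries and the list median marked. The interferon median lies at 1.19 and the sterol and fatty acid median at -0.39.

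Among the remaining genes chosen by size were NIBAN2, with 55 counts against 4 under drug and 106 against 76 without, at 3.13 (1.85 to 5.21), and PYGB, the brain form of glycogen phosphorylase, with 76 against 8 under drug and 171 against 239 without, at 2.68 (1.70 to 4.02). SLC26A2, a sulfate transporter, had 768 against 147 under drug and 1317 against 1422 without, at 1.89 (1.64 to 2.16) and 0.34. In these 3 the count of treated A375-S was the lowest of the 4. NEFL, the neurofilament light chain, had 60 against 6, at 2.72 (1.62 to 4.33), and CD55, a complement regulator, 139 against 28 under drug and 1021 against 271 without, at 1.80 (1.22 to 2.46) and 2.36. FTCDNL1 had 252 against 37, at 2.26 (1.77 to 2.81), and CD96, a receptor best known from T and natural killer cells, 53 against 6, at 2.55 (1.43 to 4.16). RELN, a secreted matrix glycoprotein and one of the most abundant coding genes in both libraries, had 4528 against 3605 and a ratio of -0.16.

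**Figure D5:**
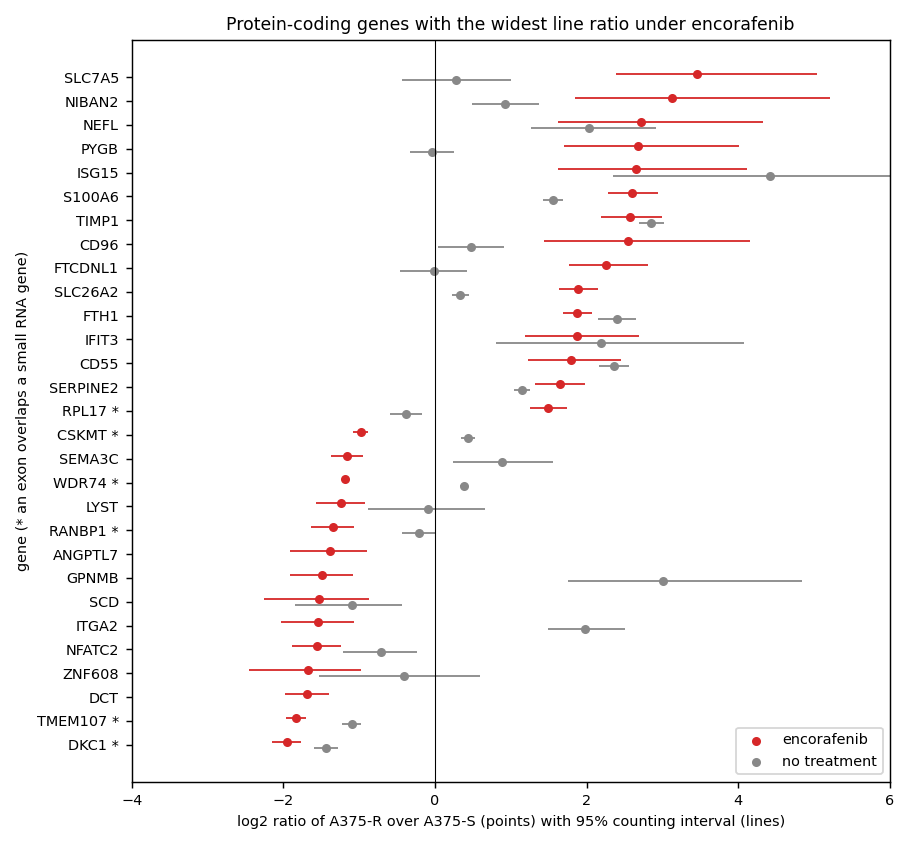
Log2 ratio of A375-R over A375-S under encorafenib with its 95% counting interval for the protein-coding genes chosen by size, 15 higher and 14 lower, beside the ratio without treatment. SLC7A5, at 3.46 under drug, lies at 0.28 without, while TIMP1 and FTH1 lie above 0 in both.

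Markers of other cell types had few counts. None of 7 fibroblast and 5 endothelial markers reached the minimum, with 5 and 4 fibroblast counts and 4 and 7 endothelial counts in treated A375-R and A375-S. Of 7 epithelial markers 1 was tested, KRT18, with 21 counts against 8.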

How the data were processed

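Read counts per gene and per mature microRNA were used as the authors deposited them; per the submitters' processing notes the genome build was hg19, and the aligner, the counter and the handling of multiply matching reads were not given in the sources at hand. Per the labels' protocols, libraries came from total RNA with the SMARTer smRNA-Seq kit. The members and gene lists were chosen with earlier results of these data known. Entries with at least 10 counts in 1 or more of the 4 libraries were kept, 8865 of 46416 in the gene table. TMM factors came from edgeR 4.0.16 in R 4.3.3, and DESeq2 1.42.0 served as an alternative. Ratios used a prior count of 0.5, with exact conditional 95% intervals from scipy 1.17.1. The reads carry no molecular identifiers, so PCR copies count as separate reads and the intervals hold counting error alone. Genes were named by the interval end nearest 0: 15 protein-coding genes each way with at least 50 counts, 4 for each other class, 10 microRNAs, up to 4 members of each list, the 10 most abundant, and 7 genes always. Some genes are not reported here.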

Additional observations from a re-analysis of the deposited data

Results flagged for a closer look

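For 5 entries the ratio of A375-R over A375-S lay beyond 2-fold in opposite directions in the treated and the untreated pair. The difference itself was not tested, since each group has 1 library, and 11 of all entries behaved so. GPNMB had a log2 ratio of -1.49 under drug and 3.01 without, a difference of -4.50 (-5.86 to -3.13). ITGA2 had -1.54 and 1.98, a difference of -3.52 (-4.19 to -2.84). The other 3 are copies of repeated genes, between which reads can be assigned either way. RNA18SN1 had 1717 counts against 4 under drug and 1170 against 15462 without, a difference of 11.36. RNA45SN2 had 605288 against 1193232 and 1353930 against 875485, a difference of -2.55. TRG-GCC2-4 had 173 against 0 and 0 against 17, a fitted difference of 12.63 that depends on the prior count and is no bound.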

How the results depend on the processing

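No paired analysis was possible because each group has 1 library and the labels give no replicate numbers. Scaling decided most: with total gene-table counts, 716 entries were higher and 31 lower. For protein-coding genes these counts were 386 and 6. The medians were 3.77 for nuclear tRNA, 1.22 for C/D box and 0.026 for H/ACA box snoRNAs. With at least 50 counts in a treated library, 63 entries were lower, 24 protein-coding genes were higher and 9 lower, and 6 microRNAs were lower, because fewer entries were tested. With no minimum the nuclear tRNA median was 2.31. Without entries of identical counts 159 entries were higher and the nuclear tRNA median was 3.33. With each distinct count profile once, chosen after seeing the data, 185 entries were higher and 99 lower. With total microRNA counts 21 microRNAs were higher and 34 lower. Against the scaled gene-table totals 116 were higher and 0 lower, which shifts the median by 2.49, and miR-296-5p stood at 0.36, miR-328-3p at 0.28 and miR-92b-3p at 0.78. Of 78 named genes beyond 2-fold, 76 stayed so with DESeq2 size factors and 58 with total counts; none reversed. Few microRNA counts in treated A375-S limit what can be said of scarce microRNAs.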
